A study of Mus musculus with 2 samples.

Results

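The genes described are the members of the EGF receptor axis that skin is known to use: 6 ligands (Areg, Ereg, Epgn, Hbegf, Tgfa and Btc), the receptors Egfr, Erbb2 and Erbb3, and the receptor inhibitor Errfi1. They were chosen by symbol, and all 10 were found among the 31053 genes of the count tables. Their UMI counts, where a UMI (unique molecular identifier) marks 1 captured RNA molecule, were summed in cell classes gated by marker genes in 2 single-cell RNA libraries. One library came from a Card14KI mouse, genotype Card14 KI +/+, and the other from a WT mouse, genotype wild type. Both mice were C57BL/6 and 12 months old, and both gave full-thickness back skin that was digested for 73 min. There was 1 mouse per genotype, so no difference below has a replicate check, no test was made, and intervals cover counting error only. CARD14 is a scaffold protein of keratinocytes that feeds the NF-kB pathway, and the change that was knocked in is not named in the labels.

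EGF family ligands are made as membrane-bound precursors that are cut free by proteases and then bind EGFR on the same or on neighbouring cells. EGFR pairs with ERBB2, which has no ligand of its own, or with ERBB3, whose kinase is weak, and the pairs signal through the RAS and ERK kinases. In epidermis the pathway is known for driving basal cell growth, wound closure and hair follicle cycling, and Errfi1 (also called Mig6) is an inducible brake that binds the EGFR kinase.

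After filtering, 2845 Card14KI cells and 4185 WT cells remained, and their median depth was 6911 and 7353 UMIs. The libraries shared 2 cell barcodes. Among the gating markers of the layers, Lor was detected in 100% of granular cells of both libraries and Krt10 in 100% of spinous cells of both. Krt14 was in 100% and 98.3% of basal cells of Card14KI and WT skin. The gate asks for such markers, so this is no independent check. Not every marker set its class apart. In WT outer root sheath cells Lgr5 was in 5.3% and Fst in 7.9%, against 5.4% and 20.6% of cells outside that class. The layer classes held 270 and 293 basal cells, 350 and 162 spinous cells, 83 and 74 granular cells, and 122 and 128 upper hair follicle cells in Card14KI and WT skin. Root sheath cells were nearly absent from the Card14KI library. It held 0 outer and 1 inner root sheath cells, against 38 and 159 in WT skin, so levels in those classes were read in WT skin only. A class name means the gate and not a sorted population. A class level is given in CPM, counts per 1000000 UMIs of the class in that library, so it cannot tell more cells with the gene from more RNA per cell. Card14 itself was at 105 and 80.7 CPM in granular cells and at 27.7 and 41.1 CPM in spinous cells of Card14KI and WT skin, and a 3' count does not show the knocked-in change.

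Epgn, Ereg, Areg and Btc are neighbours. They lie within 375.5 kb on chromosome 5 of GRCm38, from 91027464 to 91402994, and all 4 are protein-coding, with Btc on the minus strand. The promoters of Epgn, Areg and Btc are shown because these neighbours had their highest class levels in different cells, Epgn in basal or spinous, Areg in lymphoid and Btc in granular cells. The sequences are RefSeq's for GRCm38.p6, end just before the GENCODE gene start, and are 250 bases long, or 197 for Epgn, whose last 53 bases lie inside the gene. Capitals mark a TATA box (TATAAA) and, in Areg, a cAMP response element (TGACGTCA).
Epgn promoter, chr5:91027267-91027463, plus strand: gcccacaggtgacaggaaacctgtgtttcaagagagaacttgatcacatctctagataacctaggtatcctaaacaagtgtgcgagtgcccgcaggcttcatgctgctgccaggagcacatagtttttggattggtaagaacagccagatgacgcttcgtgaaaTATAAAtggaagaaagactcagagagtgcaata
Areg promoter, chr5:91139349-91139598, plus strand: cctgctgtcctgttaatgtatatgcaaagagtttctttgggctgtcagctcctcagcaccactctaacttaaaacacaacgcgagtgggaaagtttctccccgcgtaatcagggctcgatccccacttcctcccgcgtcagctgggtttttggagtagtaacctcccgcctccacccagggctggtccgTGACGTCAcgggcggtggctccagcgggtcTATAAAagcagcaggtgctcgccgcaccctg
Btc promoter, chr5:91402995-91403244, minus strand: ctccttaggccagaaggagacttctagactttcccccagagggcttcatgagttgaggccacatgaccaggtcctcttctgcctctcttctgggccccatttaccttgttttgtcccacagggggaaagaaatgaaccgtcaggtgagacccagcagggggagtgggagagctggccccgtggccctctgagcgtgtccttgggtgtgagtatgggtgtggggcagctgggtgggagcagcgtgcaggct
RefSeq promoters matched 7 of the 10 genes. The TATAAA letters were found in the Epgn and Areg windows and not in that of Btc, and 12.4% of 32851 promoter windows of 250 bases hold them on either strand. TGACGTCA was found in the Areg window and in 1.5% of all windows, and it was added to the search after the Areg letters had been seen. The AP-1 letters TGANTCA and the NF-kB motif (GGGA and CC with any 4 bases between) were searched on both strands as well. They were in none of these 3 windows, and in 6.7% and 17.6% of all windows.

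The ligands differed in where they lay, although among classes found in both libraries Ereg, Tgfa and Btc all had their highest mean level in granular cells. Btc was nearly confined to granular cells, which held 91.2% of its UMIs in Card14KI skin and 96.2% in WT skin. Ereg lay in granular and spinous cells, Epgn in basal and spinous cells, and Hbegf in every keratinocyte layer. In WT skin the inner root sheath also had Epgn. It held 29.5% of the WT Epgn UMIs, against 30.8% in basal and 25.3% in spinous cells. Among classes with 20 or more cells, Areg was highest in T cells and innate lymphocytes, and Tgfa in granular cells and, in WT skin, in the inner root sheath. Most Areg UMIs were still in keratinocytes, 83.6% in Card14KI skin and 75.7% in WT skin. T cells and innate lymphocytes held 14.6% and 20.5% of them. Egfr and Errfi1 had their highest class levels in fibroblasts, whereas 98.5% of Erbb3 UMIs of Card14KI skin and 95.9% of those of WT skin were in keratinocytes.

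**Figure D1:**
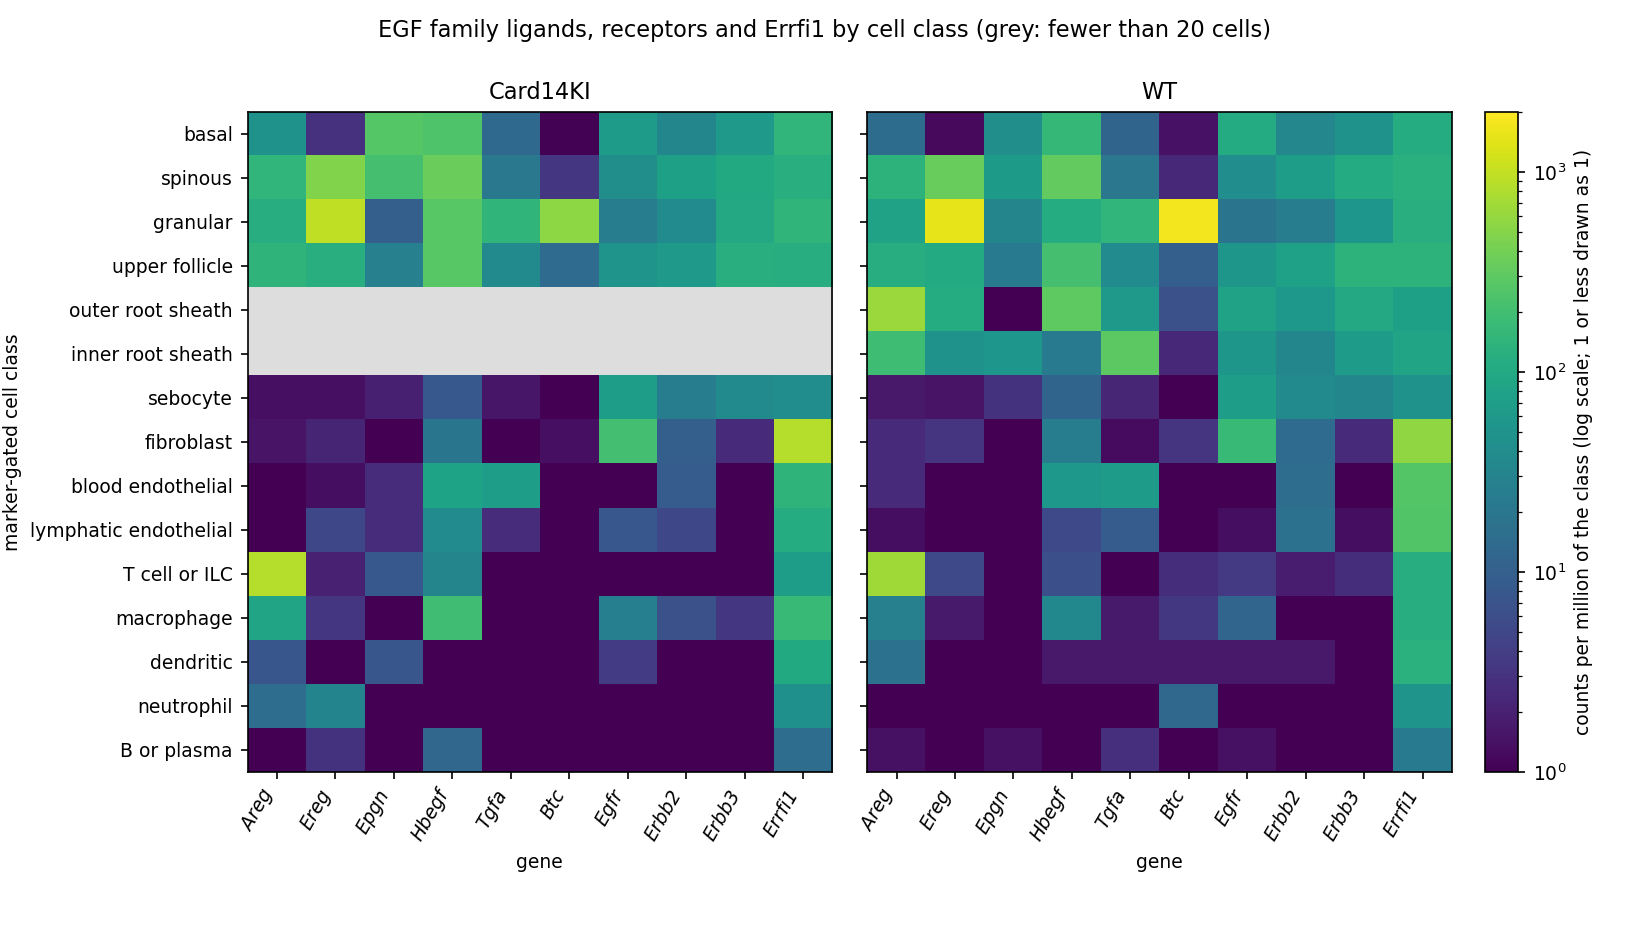
Level of the 10 genes (columns) in 15 gated cell classes (rows), Card14KI on the left and WT on the right, in CPM of the class on a log colour scale. Grey rows had fewer than 20 cells. Bright squares mark Ereg and Btc in granular cells, Areg in T cells and Errfi1 in fibroblasts of both libraries.

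Btc codes for betacellulin, a ligand of EGFR and ERBB4. Its level in granular cells was 548 CPM (95% Poisson interval 514 to 583) in Card14KI skin and 1755 CPM (1696 to 1815) in WT skin, 3.20-fold lower (2.98 to 3.44). The genotypes' intervals did not overlap. A Btc UMI was found in 42 of 83 granular cells (50.6%) of Card14KI skin and in 45 of 74 (60.8%) of WT skin. That difference of -10.21 points had an interval from -24.96 to 5.28, so a difference in how many Btc cells there were was not clear of counting error. The median in the Btc cells was 7.5 and 57 Btc UMIs. Median depth was similar, at 23643 and 27619 UMIs per granular cell. After each cell was thinned to 2000 UMIs the shares of positive cells were 32.9% and 49.3%, which also depend on the level per cell. The granular gate did not hold identical cells: the median level of the spinous keratin Krt10 was 9.81 per 10000 UMIs of a cell in Card14KI skin and 2.38 in WT skin, and that of Lor 485.5 and 699. These markers moved with Btc and with the Ereg values that follow, and their part was not tested. Most granular cells fell in 1 cluster (number 12, led by Hrnr and Flg2; the 10 genes took no part in forming the clusters), where the level was 611 CPM in Card14KI skin and 2208 CPM in WT skin. A small cluster led by late cornified envelope genes (number 26, 11 and 14 cells) went the other way, at 160.5 CPM in Card14KI skin on 40 UMIs and 44.4 CPM in WT skin on 18 UMIs. Elsewhere Btc was low. Upper hair follicle cells had 14.4 and 10.0 CPM, spinous cells 3.34 and 2.38 CPM, and fibroblasts, taken as the background class for the keratinocyte ligands, 1.36 and 3.14 CPM in Card14KI and WT skin. For Btc the fibroblasts were not an even background. Fibroblast cluster 0, with 316 of 1352 and 383 of 2143 cells, held all 8 Btc-positive cells of Card14KI skin and 32 of the 51 of WT skin.

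Ereg codes for epiregulin, another ligand of EGFR and ERBB4. It was lower in the granular cells and higher in the spinous cells of Card14KI skin. Granular cells had 973 CPM (928 to 1020) in Card14KI skin and 1490 CPM (1436 to 1546) in WT skin, 1.53-fold lower (1.44 to 1.63). Spinous cells had 479 CPM (466 to 493) in Card14KI skin and 347 CPM (329 to 365) in WT skin, a ratio of 1.38 (1.30 to 1.47). The share of granular cells with an Ereg UMI was close, 62 of 83 and 52 of 74 cells, while the median in those cells was 11.5 and 25 UMIs. The spinous gate drew cells from several clusters, and the ones that shared cluster 12 with the granular cells carried most of the spinous Ereg: 3404 of 4594 UMIs in Card14KI skin and 1072 of 1460 in WT skin. In those cells Ereg was at 1358 CPM in Card14KI skin, 72 cells, and 870 CPM in WT skin, 31 cells. In the Krt1 and Krt10 cluster (number 7) it was at 252 and 182 CPM, 202 and 103 cells. The spinous cells of cluster 6 had 323 Ereg UMIs in 59 Card14KI cells and 0 in 24 WT cells, with the depth gap given below. Basal cells had 23 Ereg UMIs in Card14KI skin and 9 in WT skin. Of the Btc-positive granular cells, 32 of 42 in Card14KI skin and 38 of 45 in WT skin also had an Ereg UMI. In Card14KI skin this was near the share over all granular cells, 62 of 83, and in WT skin above it, 52 of 74.

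Tgfa, the gene of TGF-alpha, differed little in the layers. Granular cells had 143 CPM (126 to 162) in Card14KI skin and 149 CPM (133 to 168) in WT skin, a ratio of 0.959 with an interval from 0.808 to 1.14. It was lower below the granular layer, at 20.9 and 20.4 CPM in spinous cells and 13.4 and 11.5 CPM in basal cells of Card14KI and WT skin. Blood endothelial cells, 40 and 29 in number, had 70.1 and 65.2 CPM. Over all kept cells Tgfa had 778 UMIs in Card14KI skin and 2347 in WT skin, and 70.5% of the WT UMIs came from the 159 inner root sheath cells, at 296.5 CPM, a class that had 1 cell in Card14KI skin.

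Epgn, which codes for epigen, a low-affinity ligand of EGFR, had the largest ratio of any ligand in the epidermis. In basal cells its level was 270 CPM (258 to 281.5) in Card14KI skin and 42.4 CPM (37.9 to 47.3) in WT skin, a ratio of 6.36 (5.65 to 7.18). A UMI was found in 118 of 270 basal cells (43.7%) of Card14KI skin and in 53 of 293 (18.1%) of WT skin. Thinned to 2000 UMIs per cell, the shares were 18.8% and 4.78%, against 0.592% and 0.513% of fibroblasts with a UMI at full depth. The basal gate held different cells in the 2 libraries. Cluster 6, led by Col17a1, Krt5 and Krt15, gave 171 of the Card14KI cells and 72 of the WT cells. Cluster 8, led by Akr1c18, gave 96 and 116, and cluster 10, with the root sheath genes Krt75 and Krt6a and muscle genes among its leading genes, gave 2 and 100. Epgn was a gene of cluster 6: there it was at 327 CPM (313 to 341) in Card14KI skin and 105 CPM (92.2 to 118) in WT skin, a ratio of 3.12 (2.74 to 3.57). In cluster 8 only 3 and 18 Epgn UMIs were counted, and in cluster 10 the 100 WT cells had 15.0 CPM. The log2 ratio of CPM + 10 was thus 1.55 in cluster 6 and 2.42 over the whole basal class, and both had the same direction.

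Spinous cells had 211 CPM of Epgn (202 to 220.5) in Card14KI skin and 62.0 CPM (54.7 to 70.0) in WT skin, a ratio of 3.40 (2.99 to 3.89). It was higher in Card14KI skin in each spinous cluster with 20 or more cells of both genotypes. The levels were 322 and 95.8 CPM in cluster 6, 108 and 43.7 CPM in cluster 7, and 183 and 74.7 CPM in cluster 12. A cluster of 13 spinous cells led by Mt4, Krt15, Fosl1, Serpinb2 and Epgn (number 28) was found in Card14KI skin alone. Without it the spinous ratio was 3.31. The spinous cells of cluster 6 differed in depth, with a median of 61017 UMIs in 59 Card14KI cells and 14526 in 24 WT cells, and its part in their values was not tested. Granular cells had little Epgn, 18 UMIs in Card14KI skin and 61 in WT skin, of which 30 were in 1 WT cell. In upper hair follicle cells it was at 27.1 and 22.9 CPM, with overlapping intervals.

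**Figure D2:**
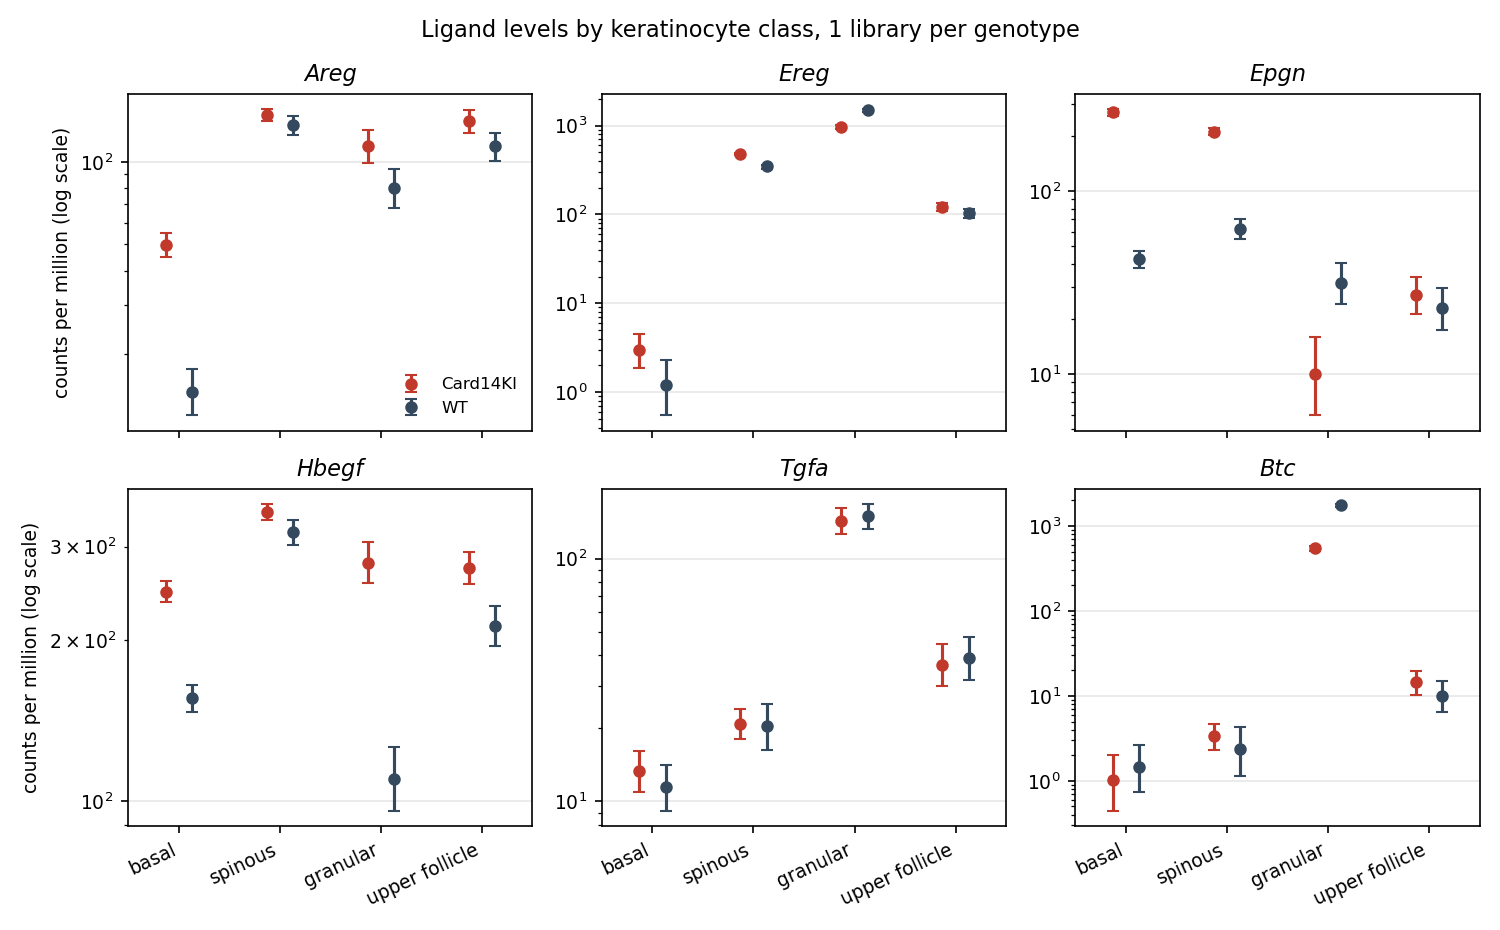
Level of the 6 ligands in 4 keratinocyte classes in CPM on a log axis whose range differs between panels, Card14KI in red to the left of WT in dark blue, 1 library each, with 95% Poisson intervals of the counts. Epgn stood at 270 CPM in Card14KI basal cells and 42.4 CPM in WT basal cells, and Btc at 548 and 1755 CPM in granular cells.

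Hbegf, the gene of heparin-binding EGF-like growth factor, which wounded keratinocytes release, was high in every layer. In granular cells it had 280.0 CPM (256 to 306) in Card14KI skin and 110 CPM (95.8 to 126) in WT skin, a ratio of 2.54 (2.16 to 3.0). The granular UMIs were concentrated, with 305 of the 502 Card14KI UMIs and 124 of the 213 WT UMIs in the top 5 cells, and after thinning the shares of positive cells were 15.2% and 15.1%. Basal cells had 247 CPM in Card14KI skin and 156 CPM in WT skin, a ratio of 1.58 (1.47 to 1.71). Here the clusters parted. In cluster 6 Hbegf was at 285 and 154 CPM in Card14KI and WT skin, while in cluster 8 it was at 68.1 and 120 CPM, 1.76-fold lower (1.38 to 2.27). Spinous cells had 349 and 320 CPM, and within the Krt1 and Krt10 cluster the order turned, at 233.5 CPM in Card14KI skin and 315 CPM in WT skin. Macrophages had 194 CPM in Card14KI skin and 34.3 CPM in WT skin, a ratio of 5.65 (3.35 to 9.91) on 59 and 20 UMIs, and 56 of the 59 Card14KI UMIs lay in 27 cells of the C1qa and Pf4 cluster (number 24).

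Areg codes for amphiregulin, which both keratinocytes and tissue lymphocytes make. In T cells and innate lymphocytes it was at 850 CPM (770.5 to 935) in Card14KI skin and 673 CPM (626 to 723) in WT skin, a ratio of 1.26 (1.12 to 1.42). The shares of positive cells were close, 48 of 137 (35.0%) and 109 of 320 (34.1%). The clusters of this class went in opposite directions. In cluster 4, led by Ccl5, Icos, Ctla4 and Il17a, Areg was at 826 CPM in Card14KI skin, 120 cells, and 462 CPM in WT skin, 263 cells. In cluster 21, led by Trdc and Xcl1, it was at 1132 CPM in 17 Card14KI cells and 1791 CPM in 57 WT cells, 1.58-fold lower (1.15 to 2.22).

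Lymphocytes with a UMI of Il17a, the interleukin 17A gene, had 3070 CPM of Areg in Card14KI skin and 353 CPM in WT skin, 8.71-fold higher (6.0 to 13) on 19 and 26 cells. A single cell gave 76 of the 241 Card14KI UMIs, and 10 of 19 Card14KI cells against 6 of 26 WT cells were positive. These cells were chosen after their values were seen. Cells with a UMI of a regulatory T cell gene (Foxp3, Ctla4, Il2ra or Ikzf2) had 1533 CPM in Card14KI skin and 589 CPM in WT skin. Only 9 of the 59 Card14KI and 29 of the 199 WT cells of that gate had a Foxp3 UMI. They gave 35 of its 354 and 41 of its 421 Areg UMIs, so the level of the whole gate is not shown to be that of regulatory T cells. The cells with a Foxp3 UMI themselves had 1090 and 420 CPM of Areg, a ratio of 2.60 (1.61 to 4.18). Of them 8 of 9 Card14KI and 14 of 29 WT cells were positive. A cell without a Foxp3 UMI is not shown to lack Foxp3. The gate shares cells with the Il17a group, as they held 354 and 241 of only 422 Areg UMIs of Card14KI lymphocytes. In lymphocytes with an Il13 UMI, 7 and 35 cells, the Areg level was 600 CPM in Card14KI skin and 1841 CPM in WT skin. Cells of the gamma-delta gate had 1195 and 1075 CPM, with an interval of the ratio from 0.934 to 1.32. Cells of the type 2 gate (Gata3, Il1rl1, Il5 or Il13) had 1047 and 779 CPM. The regulatory T, type 2 and gamma-delta gates overlap: 45 of the 137 Card14KI cells and 175 of the 320 WT cells passed 2 or more of them, so the levels are not independent. Cells that passed none had 54.3 and 24.1 CPM on 6 and 2 UMIs.

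**Figure D3:**
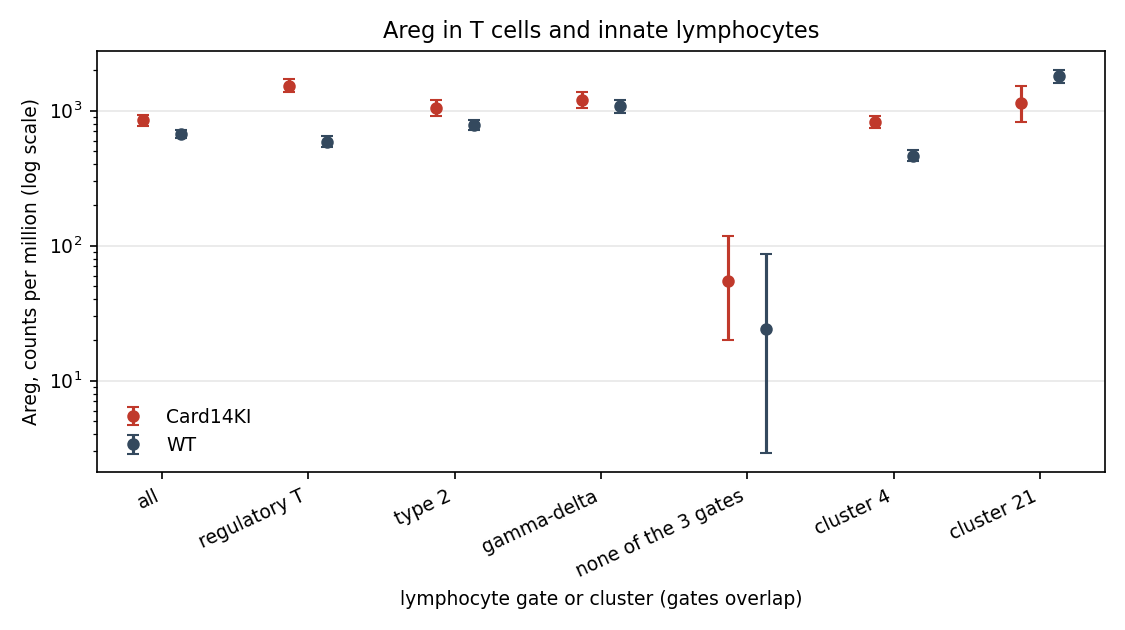
Areg in CPM, on a log axis, in all T cells and innate lymphocytes, in 3 overlapping gates, in cells outside them and in the clusters 4 and 21, Card14KI in red to the left of WT in dark blue, with 95% Poisson intervals. The regulatory T gate, in which most cells had no Foxp3 UMI, stood at 1533 CPM in Card14KI skin and 589 CPM in WT skin, and cluster 21 at 1132 and 1791 CPM.

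Among keratinocytes, Areg was at 148 CPM in Card14KI spinous cells and 136 CPM in WT spinous cells, with an interval of the ratio from 0.988 to 1.20. Basal cells had 49.8 CPM (44.9 to 55.0) in Card14KI skin and 14.5 CPM (11.9 to 17.5) in WT skin, a ratio of 3.43 (2.76 to 4.28). In cluster 6 of the basal class the ratio was 2.69 (2.01 to 3.66), from 52 positive of 171 Card14KI cells and 12 of 72 WT cells. With classes taken from whole named clusters in place of the gate, the basal log2 ratio of Areg turned to -0.152, against 1.28 with the gate. In WT skin Areg was highest among keratinocytes in the 38 outer root sheath cells, at 637 CPM, of which 241 of 579 UMIs were in 1 cell, and the inner root sheath had 188 CPM. The summed level of 10 immediate early genes moved with these basal values. It was 13840 CPM in Card14KI and 8446 CPM in WT basal cells, a ratio of 1.64, and 1.23 in cluster 6, and its part in the basal ligand values was not tested.

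Of the receptors, Egfr lies at 16752203 to 16918158 and Erbb2 at 98412470 to 98437716 on the plus strand of chromosome 11, and Erbb3 at 128567523 to 128589652 on the minus strand of chromosome 10 (GRCm38). Egfr had its highest class level in fibroblasts, 207.5 CPM (198 to 218) in Card14KI skin and 166 CPM (160 to 172) in WT skin, a ratio of 1.25 (1.18 to 1.33). In the 8 fibroblast clusters with 10 or more cells of each genotype the ratio ran from 0.733 to 1.39, and 7 of the 8 had intervals that held 1. In basal cells Egfr was at 64.8 CPM in Card14KI skin and 107 CPM in WT skin, 1.65-fold lower (1.48 to 1.85). Inside the clusters that difference was not seen: cluster 6 had 46.9 and 43.5 CPM, a ratio of 1.08 (0.861 to 1.36), cluster 8 had 149 and 133 CPM, a ratio of 1.12 (0.923 to 1.35), and the 100 WT cells of cluster 10, which had no counterpart in Card14KI skin, had 139 CPM. Sebocytes had 71.5 and 68.1 CPM, spinous cells 42.5 and 41.6 CPM, and granular cells 24.0 and 18.6 CPM. In T cells and innate lymphocytes Egfr had 0 UMIs in Card14KI skin, which allows up to 6.04 CPM, and 4 UMIs in WT skin.

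Erbb2 and Erbb3 followed each other across cell types. Over the 28 class-by-library points with 20 or more cells, the Pearson correlation of their log2 levels was 0.92, given as a description since the points share 2 libraries. Erbb2 was highest in spinous and upper hair follicle cells, at 75.8 and 61.9 CPM in Card14KI skin and 68.0 and 78.4 CPM in WT skin. Erbb3 was highest in upper hair follicle cells, 118 CPM in Card14KI skin and 135 CPM in WT skin, with a ratio interval from 0.747 to 1.02, and next in spinous cells, 101.5 and 106 CPM, whose intervals overlap. In granular cells both were higher in Card14KI skin. Erbb3 was at 99.3 CPM (85.2 to 115) in Card14KI skin and 54.3 CPM (44.4 to 65.7) in WT skin, a ratio of 1.83 (1.43 to 2.35), and Erbb2 stood at 39.0 CPM and 24.3 CPM, 1.61-fold higher (1.09 to 2.38). The background in that class was high in this direction, as given with the counts below. In sebocytes Erbb2 was at 25 CPM in Card14KI skin and 37.3 CPM in WT skin, and Nrg4, a neuregulin, was at 118.5 and 109 CPM there.

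Errfi1 was the member with the most UMIs in both libraries, 11106 in Card14KI skin and 13923 in WT skin, and 63.5% and 73.1% of them were in fibroblasts. Its fibroblast level was 869 CPM in Card14KI skin and 571 CPM in WT skin, a ratio of 1.52 (1.48 to 1.57). The clusters did not share that direction. In cluster 1, led by Ptx3, Ptgs2, Cxcl1 and Has1, Errfi1 was at 1590 CPM in Card14KI skin and 1840 CPM in WT skin, 1.16-fold lower (1.11 to 1.21), and this cluster made up 30.8% of Card14KI fibroblasts and 12.6% of WT fibroblasts. It held 72.9% and 41.1% of the fibroblast Errfi1 UMIs. Errfi1 was also lower in cluster 2, at 289 and 539 CPM, and in cluster 13, at 568 and 943 CPM, and higher in cluster 5, led by Mmp11 and Spp1, at 319 CPM in Card14KI skin and 164 CPM in WT skin.

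Errfi1 was lower in the vessels of Card14KI skin. Lymphatic endothelial cells had 111 and 254 CPM, 2.28-fold lower (1.63 to 3.25) on 43 and 192 UMIs, and blood endothelial cells had 140 and 261 CPM, 1.86-fold lower (1.41 to 2.46) on 106 and 104 UMIs. In the same cells the summed heat shock list was 2.07-fold and 2.0-fold higher in Card14KI skin and the immediate early list 1.59-fold and 1.84-fold higher, in lymphatic and in blood endothelium, and their part in the Errfi1 values was not tested. T cells and innate lymphocytes had 68.5 and 114 CPM, 1.66-fold lower (1.13 to 2.50). In keratinocytes the ratio of Errfi1 ran from 0.823 in upper hair follicle cells to 1.32 in basal cells, where it was at 147 CPM in Card14KI skin and 111 CPM in WT skin, and in cluster 6 the basal ratio was 1.12 (0.989 to 1.28).

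**Figure D4:**
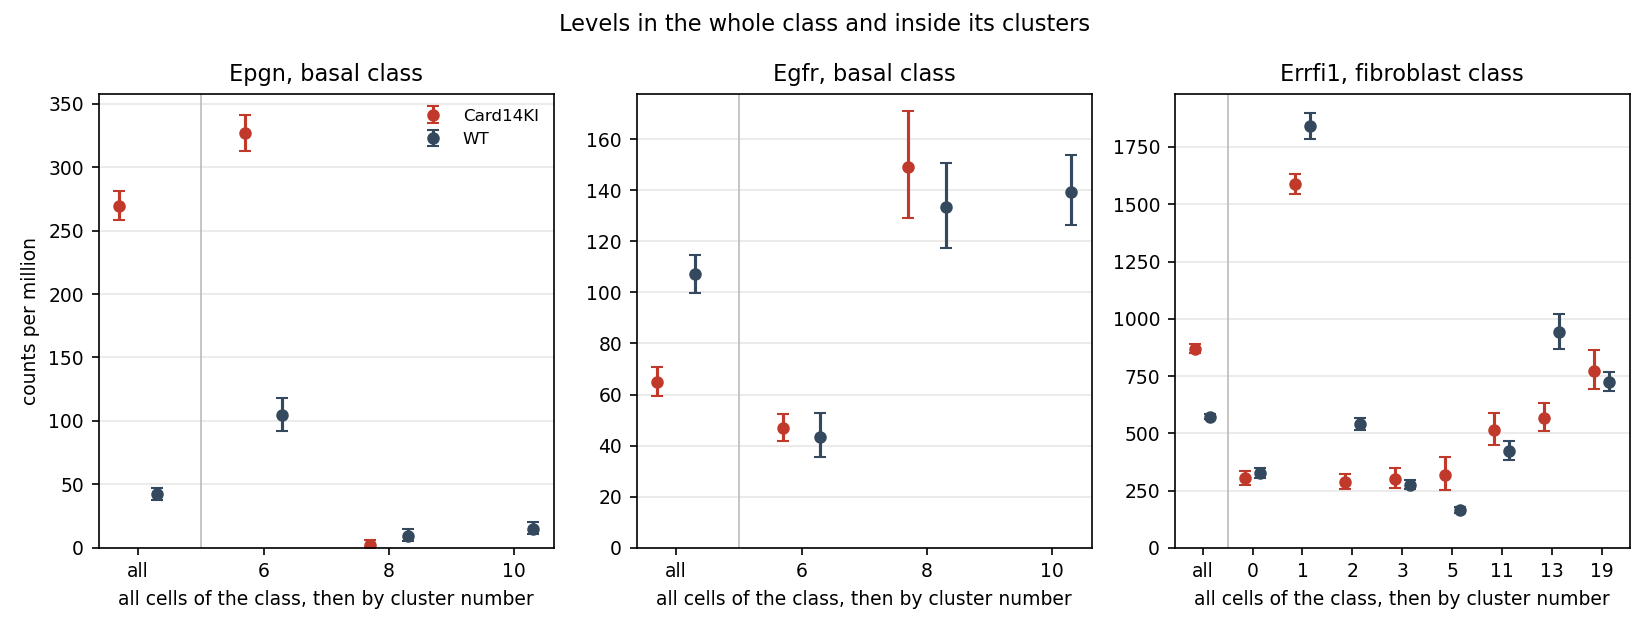
Epgn and Egfr in the basal class and Errfi1 in the fibroblast class in CPM, for all cells of the class and then inside each numbered cluster, Card14KI in red to the left of WT in dark blue, with 95% Poisson intervals. Cluster 10 holds 2 Card14KI cells and is drawn for WT only. Epgn kept its order in cluster 6, at 327 and 105 CPM, while Egfr was at 46.9 and 43.5 CPM there.

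The counts below set the 10 genes against all genes with 20 or more UMIs over both libraries in a class, with a level at least 1.5-fold apart counted as past the fold. In granular cells, 3 of 10 members were higher (Hbegf, Erbb2 and Erbb3) and 3 lower (Ereg, Epgn and Btc) in Card14KI skin, against 25.2% of 5883 genes higher and 7.0% lower. In basal cells, 4 of 9 were higher (Areg, Ereg, Epgn and Hbegf) and 1 lower (Egfr), against 8.51% of 11880 genes higher and 21.7% lower. In spinous cells, 1 of 10 was higher (Epgn) and 0 lower, against 10.7% and 6.16% of 10626 genes. In upper hair follicle cells 0 of 10 passed in either direction, against 7.89% and 11.4%. Of the 3 lower members of granular cells, Btc kept its call in every alternative run. With classes from named clusters the log2 ratio of Ereg was -0.0619, within the fold, and that of Epgn turned to 1.04. That granular class also takes in the 72 Card14KI and 31 WT spinous-gated cells of cluster 12. With equal weight for each gated granular cell the log2 ratio of Epgn was 0.70. The 3 higher members sat near the background. The 4 higher members of basal cells were all ligands, and the median log2 ratio of the 9 was 0.289 against -0.119 for all genes of the class. Of the 4, Areg turned with named clusters as given above, Ereg rested on 23 and 9 UMIs, and Hbegf was lower in cluster 8. The 1 lower member, Egfr, was not lower inside clusters 6 and 8.

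Outside the layers fewer members could be counted. In fibroblasts 1 of 10 was higher (Errfi1) and 3 lower (Areg, Tgfa and Btc, on 5 to 12 UMIs in Card14KI and 22 to 56 UMIs in WT skin), against 7.27% and 17.5% of genes. In macrophages 3 of 3 were higher (Areg, Hbegf and Errfi1), against 13.1% higher and 17.1% lower. The log2 ratio of Areg there turned to -0.476 in the largest macrophage cluster, number 9, with 24 of 51 Card14KI and 64 of 101 WT cells. That of Errfi1 turned to -0.0805 with classes from named clusters. In T cells and innate lymphocytes 1 of 3 was higher (Hbegf, on 16 and 7 UMIs) and 1 lower (Errfi1), against 7.85% and 19.4%. Sebocytes had 1 of 7 lower (Epgn, on 10 and 16 UMIs), against 8.03%, and 0 higher, against 5.51%. A single WT sebocyte gave 13 of the 16 UMIs, the interval of the ratio ran from 0.265 to 1.53, and without the top cell of each library the log2 ratio turned to 0.132. Blood endothelium had 1 of 3 lower (Errfi1) and 0 higher, against 20% and 10.1% of genes, and lymphatic endothelium 1 of 1 lower (Errfi1), against 18.6% lower and 8.06% higher. In dendritic or Langerhans cells and in B or plasma cells the 1 member counted passed in neither direction, against 9.72% and 10.2% of genes higher and 21% and 24.5% lower. In neutrophils 0 members could be counted, against 10.4% higher and 23.3% lower.

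**Figure D5:**
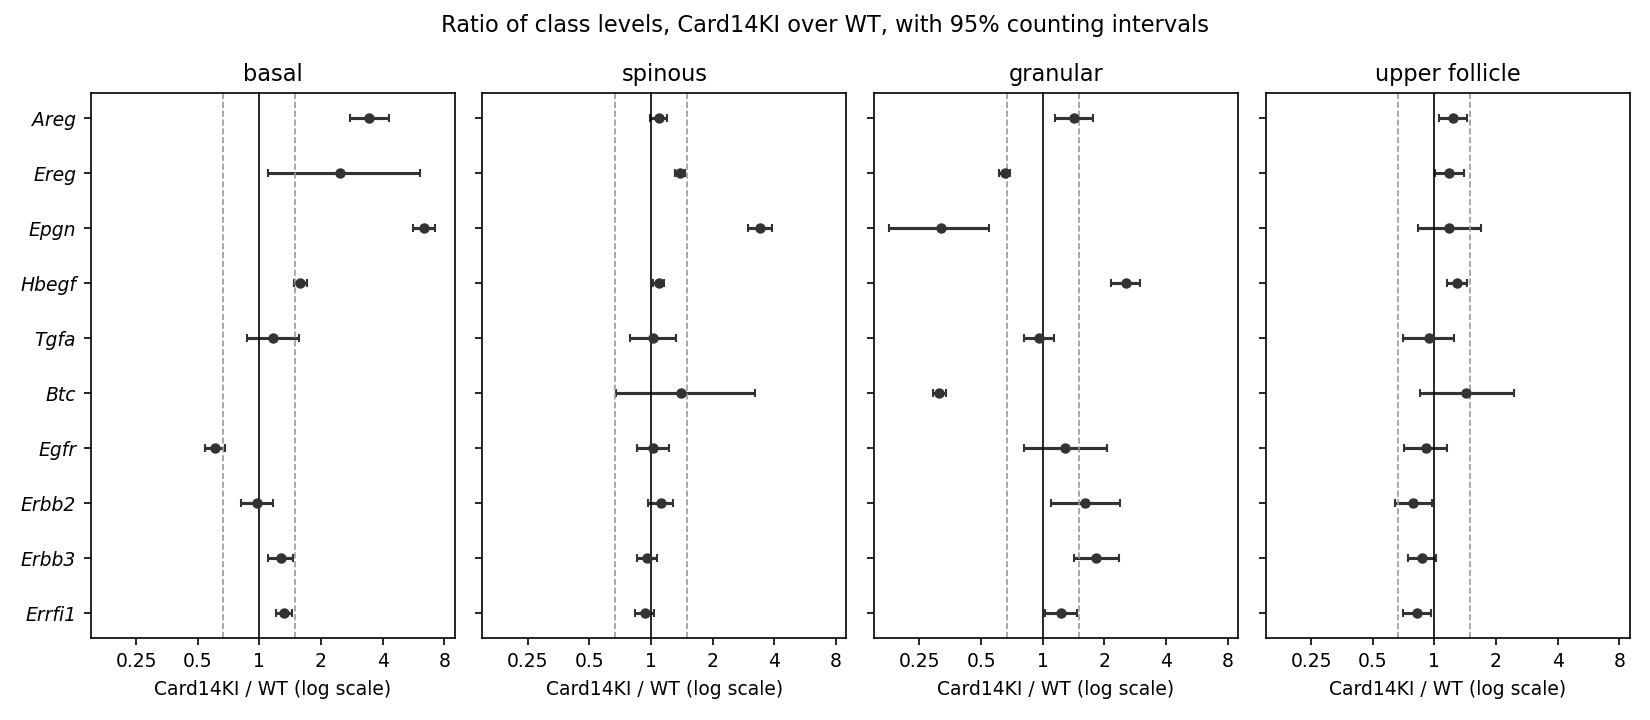
Ratio of the class level in Card14KI over WT, on a log axis, for the 10 genes in 4 keratinocyte classes, with exact conditional 95% counting intervals. The solid line marks equality and the dashed lines 1.5-fold in each direction, and Btc in basal cells is left out with under 20 UMIs. Epgn lay at 6.36 in basal and 3.40 in spinous cells and Btc at 0.312 in granular cells.

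The other genes of the pathway were counted in the same way. Of a list of 38 (further ligands, ERBB4, shedding proteases, adaptors, receptor brakes and ERK target genes), 35 could be counted in basal cells, with 3 higher and 8 lower past 1.5-fold, close to the 8.51% and 21.7% of all genes, and a median log2 ratio of -0.0561 against -0.119 for all genes. In granular cells 4 were higher and 2 lower of 19, against 25.2% and 7.0% of genes, with a median of 0.154 against 0.175. In spinous cells 3 were higher and 1 lower of 31, against 10.7% and 6.16%, with a median of 0.00114 against 0.00984. In upper hair follicle cells 3 were higher and 3 lower of 30, against 7.89% and 11.4%, with a median of -0.209 against -0.0321. In fibroblasts 6 were higher and 10 lower of 35, against 7.27% and 17.5%. The ligand shedding genes Adam17, Adam10, Rhbdf1 and Rhbdf2 were all counted in these 3 layers. Of them Rhbdf1, a partner of the sheddase ADAM17, was at 23.4 CPM in Card14KI granular cells and 9.31 CPM in WT granular cells, and it was the 1 past the fold.

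Several ERK target and feedback genes differed by class, and some of these differences were not seen inside clusters. Fosl1, the FRA-1 transcription factor gene, was at 218 CPM in basal cells of Card14KI skin and 53.5 CPM in those of WT skin, a ratio of 4.07 (3.65 to 4.55), and at 260 and 136 CPM in cluster 6, a ratio of 1.91 (1.70 to 2.16). Dusp6, a phosphatase that switches ERK off, was 2.50-fold lower in the basal class, at 50.7 and 127 CPM. Within cluster 6 the order of Dusp6 turned, at 46.1 CPM in Card14KI skin and 25.8 CPM in WT skin, a ratio of 1.78 (1.35 to 2.38), and in cluster 8 it was at 73.3 and 66.7 CPM. Etv4 and Spred1 were also lower in the basal class, 3.04-fold and 2.09-fold, with ratios of 0.657 (0.327 to 1.37) and 0.853 (0.656 to 1.12) in cluster 6. In cluster 8 the ratio of Etv4 was 0.815 (0.453 to 1.43). Spred1 was lower there too, at 83.8 CPM in Card14KI skin and 117 CPM in WT skin, a ratio of 0.718 (0.567 to 0.905). Ier3, an immediate early survival gene, was at 161.5 CPM in Card14KI and 74.6 CPM in WT spinous cells and at 74.2 and 25.4 CPM in sebocytes. In cluster 7, which holds most spinous cells, Ier3 was at 60.2 and 54.5 CPM, with a ratio interval from 0.876 to 1.40, and in spinous cells of cluster 12 it was at 154 and 71.5 CPM. The ERK list had 0 higher and 3 lower of 12 past the fold in cluster 7, and 2 and 0 of 10 in spinous cells of cluster 12. In basal cells it had 4 and 1 of 14 in cluster 6 and 1 and 0 of 15 in cluster 8. Granular cells of cluster 12 had 1 and 2 of 9. The share over all genes was not counted inside clusters, so these counts have no background. Phlda1 was 2.60-fold lower in granular cells, at 19.5 and 50.7 CPM, and 1.61-fold higher in basal cells.

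Each member's nearest companions across the 28 class-by-library points, by Pearson correlation of log2(CPM + 10), followed the same geography. The 3 genes most like Btc were Lce1a1, a late cornified envelope gene, at 0.984, 5430427M07Rik and Lce1c. Those most like Ereg were Il1f5, the IL-36 receptor antagonist gene, at 0.965, Lipm and Bicdl2, and those most like Epgn were Wnt3 at 0.886, Serpinb2 and Cyp3a13. Areg was most like Hopx at 0.919, Trbc2 and Mapkapk3, Hbegf most like Iffo2 at 0.878, Trim13 and Ssh3, and Tgfa most like Shb at 0.885, Lmo7 and Dlx3. Of the receptors, Egfr was most like the cadherin gene Fat1 at 0.912, Efs and Pik3r2, Erbb2 like Adgra3 at 0.955, Cdc42bpg and Ppp1r13l, and Erbb3 like the epidermal differentiation factor gene Zfp750 at 0.987, 2610528J11Rik and Klc3. Errfi1 was most like Ctdsp2 at 0.868, Samd4b and Bmp1. They are the highest of 12398 genes compared, and the points share 2 libraries. These are correlations of class levels and do not show that 2 genes share cells. Granular cells of cluster 26, with Lce1a1 and Lce1c among its leading genes, had less Btc than those of cluster 12 in both libraries.

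How many ligands a cell carried depended on layer and depth. Cells with UMIs of 3 or more of the 6 ligands made up 61.4% of Card14KI and 63.5% of WT granular cells, 49.1% and 39.5% of spinous cells, and 25.2% and 11.3% of basal cells. Thinned to 2000 UMIs per cell, the shares were 13.9% and 26.0% in granular cells, 11.3% and 4.67% in spinous cells, and 1.57% and 1.10% in basal cells. In the spinous layer 104 of 173 Epgn-positive Card14KI cells also had an Ereg UMI, against 18 of 41 in WT skin. Over all spinous cells 154 of 350 and 50 of 162 had one. In basal cells 8 of 118 and 7 of 53 Epgn-positive cells had an Ereg UMI. Ereg was rare in that layer, with a UMI in 12 of 270 and 8 of 293 basal cells. Of these, 8 of the 12 and 7 of the 8 also had an Epgn UMI.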

How the data were processed

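Gene-by-barcode UMI counts of 2 libraries were used as deposited by the authors: whole numbers, not normalized, for the barcodes their pipeline called as cells. The kit was the 10x Genomics 3' one, version 3.1, per the labels' protocols. Reads were counted on mm10, with Cell Ranger 6.0.2 per the submitters' processing notes but 5.0.0 per the file headers. The kit counts 3' ends, so levels are not compared between genes.

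Barcodes with 500 or more genes and under 20% mitochondrial UMIs were kept. The doublet caller's own threshold marked 4 and 2 barcodes of Card14KI and WT, which was taken as a failure, so the 68 and 150 top-scoring barcodes (0.8% per 1000 barcodes) were removed. Each cell went to the class with the highest scaled marker score, at least 0.2 with 3 markers detected, or to none (99 and 238 cells). Of the gated cells, 91.0% lay in a Leiden cluster (scanpy 1.11.5, resolution 1, members left out of its 2000 variable genes) of the same class. Kept cells held 38682521 and 51621373 UMIs. Class sums were scaled to CPM (counts per 1000000 UMIs). Ratios have exact conditional binomial 95% intervals, and log2 ratios add 10 CPM. Thinning drew 2000 UMIs per cell and left out shallower cells, 4 and 1 of the granular, 24 and 12 of the spinous and 15 and 21 of the basal cells of Card14KI and WT. The genes most alike were the 3 with the highest correlation among those with 200 or more UMIs. Of the pathway list, genes past 1.5-fold with an interval clear of 1 in a keratinocyte class could be named, up to 3 in each direction. Ratios were checked on simulated Poisson counts only, so the check does not cover UMIs that are concentrated in few cells. edgeR 4.0.16 served for TMM scaling only. Members and lists were chosen with earlier results of these data known. Locations are from GENCODE vM21. One planned lymphocyte gate is not reported here.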

Additional observations from a re-analysis of the deposited data

Results flagged for a closer look

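A gene was listed here where 1 cell class was at least 1.5-fold higher and another at least 1.5-fold lower in Card14KI than in WT skin, each with a counting interval clear of 1. The difference between classes was not tested, since there was 1 mouse per genotype. Epgn had a Card14KI over WT ratio of 6.36 in basal cells and 3.40 in spinous cells and of 0.318 in granular cells, where 30 of the 61 WT UMIs were in 1 cell. Ereg had a ratio of 2.48 in basal cells, on 23 and 9 UMIs, and of 0.653 in granular cells. The basal value rests on few cells: 18 of the 23 Card14KI UMIs were in cycling cells, and in basal cells that were not cycling the ratio was 0.716, on 5 and 8 UMIs. With classes from named clusters the granular log2 ratio of Ereg was -0.0619 and that of Epgn 1.04. That granular class also takes in the 72 Card14KI and 31 WT spinous-gated cells of cluster 12, so it is not the gated class alone. The granular value of Epgn also turned with equal weight for each cell, so its opposition of classes was not stable. Granular Ereg kept its sign in 11 of 11 alternative runs, from -0.862 to -0.0619, but its opposition rests on the few basal UMIs. Errfi1 had ratios of 1.52 in fibroblasts and 1.51 in macrophages, and of 0.537 in blood endothelium, 0.439 in lymphatic endothelium and 0.602 in T cells and innate lymphocytes. The macrophage log2 ratio of Errfi1 turned to -0.0805 with classes from named clusters. The fibroblast one turned to -0.0966 in the largest fibroblast cluster, number 0, with 316 of 1352 Card14KI and 383 of 2143 WT fibroblasts.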

How the results depend on the processing

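No paired analysis was possible because each genotype is 1 mouse, and no replicate could be left out. Of 68 member-by-class log2 ratios (Card14KI over WT), 24 were past 1.5-fold, and 15 of those kept their sign in every alternative run. The cause of each change below was not tested. Taking only the largest cluster of a class over both libraries was added after the data were seen. That cluster need not hold most cells of the class. This run turned Egfr in basal cells to 0.0884, Errfi1 in fibroblasts to -0.0966, Areg and Tgfa in fibroblasts to 0.0645 and 0.0450, and Areg in macrophages to -0.476. It moved Epgn in basal cells to 1.55, Ereg and Btc in granular cells to -0.732 and -1.84, Hbegf in spinous cells to -0.417, Areg in T cells to 0.823 and Egfr in fibroblasts to 0.0995. Classes taken from named clusters turned Areg in basal cells to -0.152, Epgn in granular cells to 1.04 and Errfi1 in macrophages to -0.0805, and gave -0.0619 for Ereg and -2.17 for Btc in granular cells and -0.350 for Hbegf in spinous cells. Equal weight for each cell turned Epgn in granular cells to 0.70 and gave 2.01 for Epgn in basal cells, 0.190 for Egfr and 0.346 for Errfi1 in fibroblasts, and 0.0386 for Erbb3 in upper hair follicle cells. TMM scaling gave -0.862, -1.91 and -0.295 for Ereg, Btc and Tgfa in granular cells, 2.60 for Epgn in basal cells, and 0.472 and 0.771 for Egfr and Errfi1 in fibroblasts, with all genes shifted by -0.255 in granular and 0.209 in basal cells and 0.177 in fibroblasts. Without the top cell of each library, Epgn in sebocytes was 0.132 and Hbegf in spinous cells 0.220. Cells of 5000 or more UMIs, also added later, gave 0.0685 for Areg in T cells and 0.763 for Errfi1 in fibroblasts. Ereg in granular cells was -0.521 with no cell filter and -0.768 without border cells, Btc there was -1.47 with likely doublets kept, and Epgn in basal cells was 2.64 with a pseudocount of 1 CPM. Thinned to 2000 UMIs, the difference in positive cells was -1.90 points for Egfr in upper hair follicle cells and -1.23 points for Erbb2 in basal cells. Values on under 30 UMIs per library are limited by depth.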

Other observations

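Among upper hair follicle cells, the neuregulin gene Nrg1 was at 8.79 CPM in Card14KI skin and 3.22 CPM in WT skin, on 25 and 8 UMIs. In sebocytes the feedback genes Spry4 and Dusp6 were at 18.3 and 8.84 CPM in Card14KI skin and 7.53 and 4.71 CPM in WT skin. Epgn was at 54.5 CPM in the inner root sheath of WT skin, while 0 of 38 outer root sheath cells had an Epgn UMI.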
